A study of Danio rerio with 43 samples.

Results

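The Hox cluster genes of the zebrafish were followed through the first day of development in rif1 mutant and wild-type embryos. They were chosen by name, as 49 gene symbols of the 7 zebrafish Hox clusters, with no measured value in the rule. The table of 31877 gene entries held 48 Hox entries, of which 38 could be assigned to 1 symbol. The other 10 form 5 pairs that the gene name table gives only by a shared human orthologue (hoxa11a/b, hoxb5a/b, hoxc6a/b, hoxc12a/b and hoxc13a/b), and they are named here by identifier. No identifier was matched to hoxa4a, which was not analysed here. In the RefSeq gene models of a later assembly (GRCz12tu), 13 of the 49 genes lie inside the span of another Hox gene, in hoxa3a, hoxb1b, hoxb3a, hoxc3a or hoxd3a. How the counting assigned reads there, and whether it used strand, is not given in the sources used here, so values of these hosts and of the genes within them are uncertain to that extent.

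Polyadenylated RNA from pools of whole embryos had been sequenced from the 3′ end (QuantSeq) in 43 libraries, 21 from mutants and 22 from wild type. The mutants were homozygous for the omf201 allele of rif1 (rif1 omf201/omf201), and every library of both genotypes carries the strain name Tab5. Both genotypes were sampled at the 1-cell stage (0 to 0.5 hours post fertilisation, hpf), the 256-cell stage (2 to 2.5 hpf), dome (4 to 4.5 hpf), shield (6 hpf), bud (10 hpf) and 24 hpf. Mutants gave 3 libraries at each of the first 3 stages and 4 at each later one, and wild type gave 3 libraries at 256-cell and shield and 4 at the other stages. Per the protocols in the labels, clutches were checked for even staging, and embryos of abnormal shape were taken out before collection, which limits the mutants seen here to those of normal shape. The parents of the embryos are not named in the labels. At the 1-cell stage the RNA comes from the egg, and effects of the mothers' genotype and of the line's background cannot be told apart. At later stages neither of these can be told apart from effects of the embryos' own genotype. The labels tie no library to a clutch, so p-values measure the spread between these pools, which may in part be technical. In whole embryos, fewer cells that express a gene and less RNA per cell cannot be told apart.

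Hox genes encode homeodomain transcription factors that give cells their position along the head-to-tail axis. Within a cluster the genes are numbered in paralogue groups from 1, at the 3′ end, to 13, at the 5′ end, and this order matches the order in which the genes are switched on and the head-to-tail order of their domains. Low-numbered groups act in the hindbrain and pharyngeal arches, middle groups in the trunk, and high-numbered groups in the tail and the fins. Hox proteins bind DNA together with TALE homeodomain partners of the Pbx and Meis families. Retinoic acid, Cdx factors and the Fgf and Wnt signals of the tail bud turn the clusters on, and Polycomb complexes keep them silent elsewhere. Rif1 is a chromatin protein that controls when stretches of the genome replicate, working with protein phosphatase 1, and also takes part in DNA repair.

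Total counts per library ranged from 5211421 to 14143931. rif1 itself had 15 to 139 counts in each mutant library and 587 to 2305 counts in each wild-type library, in keeping with the genotype given for every library. Its level was 9.92 ± 1.67 CPM in mutants and 90.4 ± 9.50 CPM in wild type at bud (SD, n = 4 each), where CPM stands for the count divided by the library total and scaled to 1e+06. The log2 fold change was -3.15 (SE 0.18, adjusted p 2.04e-10). Here and below, adjusted p-values come from the quasi-likelihood test of edgeR and are adjusted over all genes tested by the method of Benjamini and Hochberg. That test reports no SE. The SE given is the log2 fold change without its sign, divided by the square root of the test's F statistic. Since each transcript gives reads at its 3′ end only, levels of different genes are set side by side per library total, with no correction for transcript length.

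Until gastrulation the Hox clusters were almost silent in both genotypes. A gene is called detected here where every library of a group held more than 3 counts, the limit that a count of 0 allows; this limit covers counting error only. Of the 48 entries, 3 were detected in mutants and 4 in wild type at the 1-cell stage, 2 in each genotype at 256-cell, and 0 in mutants and 1 in wild type at dome. At shield the single gene detected in either genotype was hoxb1b, a group 1 gene that acts in early hindbrain segmentation. At bud 26 entries were detected in mutants and 25 in wild type, and at 24 hpf 37 in mutants and 40 in wild type. The summed level of all Hox entries was 13.5 to 25.8 CPM in mutants and 13.4 to 19.3 CPM in wild type at the 1-cell stage, with overlap. At 256-cell it was 21.8 to 23.6 CPM in mutants and 10.8 to 14.3 CPM in wild type, and every mutant library was above every wild-type library. At dome the sum was 4.03 to 25.5 CPM in mutants and 7.17 to 10.9 CPM in wild type, with overlap. It was 4.70 to 9.19 CPM in mutants and 6.60 to 10.4 CPM in wild type at shield. At bud it was 691 to 802 CPM in mutants and 896 to 949 CPM in wild type, and at 24 hpf 556 to 585 CPM in mutants and 686 to 769.5 CPM in wild type. The genotypes overlapped in this sum at shield, and all mutant libraries were below all wild-type libraries at bud and at 24 hpf. Without hoxb1b and hoxb7a, the most abundant entries at bud, the sum of the other 46 was 349 to 416 CPM in mutants and 383 to 414 CPM in wild type at bud, with overlap, and 489 to 519.7 CPM in mutants and 605 to 699.7 CPM in wild type at 24 hpf, without overlap. These 2 entries were set aside after their values were seen.

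**Figure D1:**
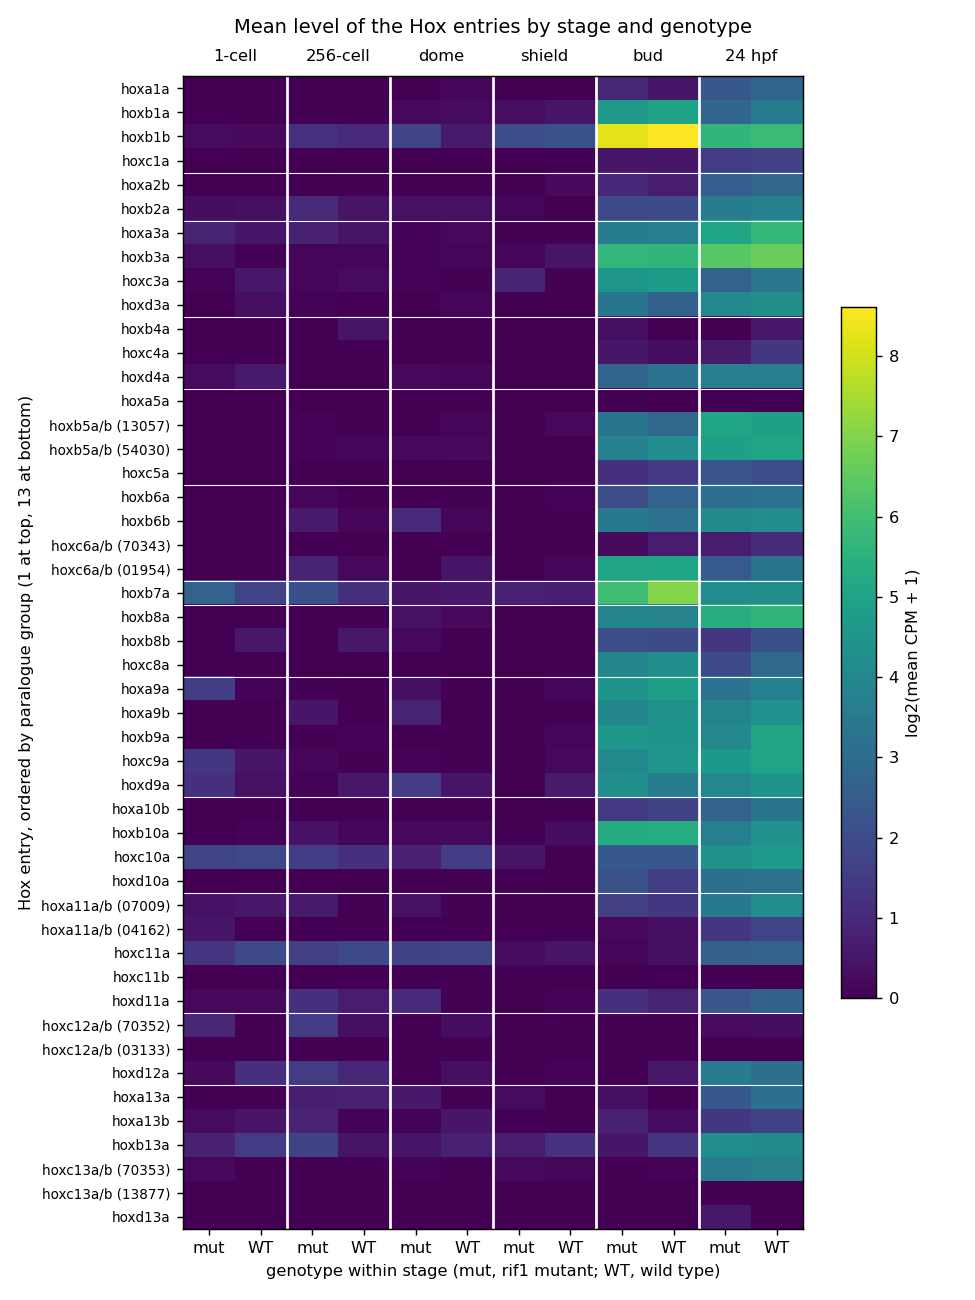
Mean level of each of the 48 Hox entries, as log2(mean CPM + 1), with entries in paralogue order down the page and, across it, mutant left of wild type (WT) within each of the 6 stages; entries that could not be assigned to 1 symbol carry the last digits of their identifier. Up to shield most entries are near 0 in both genotypes, with traces of some, such as hoxb7a at the 1-cell stage. Most entries of groups 1 to 10 are seen at bud, with hoxb1b highest, and groups 11 to 13 stay low until 24 hpf.

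The traces at the earliest stages did not follow the paralogue order. Those at the 1-cell stage do not bear on the order in which the embryo switches the genes on. In wild type the 4 genes detected at the 1-cell stage were hoxb7a, hoxc10a, hoxc11a and hoxb13a, all of middle or high number. In mutants they were hoxb7a, hoxa9a and hoxc10a. hoxc11a, of the posterior trunk and tail, had 2.08, 2.38 and 0.142 CPM in mutants and 1.48, 2.57, 4.21 and 3.72 CPM in wild type at the 1-cell stage and 0.336, 3.84 and 2.34 CPM in mutants and 3.34, 1.38, 1.59 and 3.36 CPM in wild type at dome. At the 1-cell stage these values come from 1 to 39 counts per library, and the genotypes overlapped at both stages. hoxb13a, a gene of the tail end of the embryo, had 0.855, 0.108 and 1.28 CPM in mutants and 2.12, 1.11, 2.50 and 1.81 CPM in wild type at the 1-cell stage. The highest mutant library reached above the lowest wild-type one. hoxc10a, of the trunk and tail, had 0.978, 2.49 and 3.70 CPM in mutants and 3.39, 4.80, 1.02 and 1.43 CPM in wild type at the same stage, with overlap. At shield it had 0, 0, 0 and 9 counts in mutants and 0, 0 and 0 counts in wild type.

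At bud, the end of gastrulation, detection by the count limit had reached paralogue group 10 in both genotypes. In groups 1 to 4, 7 of 13 entries were detected in mutants and 8 in wild type. In groups 5 to 8 these numbers were 9 of 12 in mutants and 10 in wild type, and in groups 9 and 10 they were 9 of 9 in mutants and 7 in wild type. In groups 11 to 13 they were 1 of 14 in mutants, hoxa11a/b (ENSDARG00000007009), and 0 in wild type. Of groups 9 and 10, hoxa10b and hoxd10a were detected in mutants alone. Their log2 fold changes of mutant over wild type at bud were -0.29 and 0.78, and neither passed the test. By the test between shield and bud given below, 2 of 3 tested entries of groups 11 to 13 rose in mutants and 1 of 3 in wild type. The hoxa11a/b entry (ENSDARG00000007009) rose in both genotypes, and hoxd11a passed in mutants alone, at a mean of 1.31 CPM at bud. For hoxd11a the difference between the genotypes' changes did not pass, so no difference between the genotypes is read from this. The most abundant Hox gene at bud was hoxb1b, with 377, 329, 279 and 228 CPM in mutants and 430.3, 349.8, 382 and 397 CPM in wild type. Next came hoxb7a, a gene of the trunk, followed by hoxb3a, a gene of the caudal hindbrain, with 51.03 ± 6.40 CPM in mutants and 48.7 ± 6.15 CPM in wild type (SD, n = 4 each). hoxb10a, of the posterior trunk, was at 38.5 ± 11.2 CPM in mutants and 39.2 ± 6.48 CPM in wild type (SD, n = 4 each). hoxd4a, of the caudal hindbrain, was at 5.77 ± 0.746 CPM in mutants and 8.81 ± 1.97 CPM in wild type (SD, n = 4 each). The order of levels at bud therefore did not follow the paralogue number.

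The rise between shield and bud passed the test for nearly every entry with enough counts. Apart from hoxb1b no entry was detected at shield, so the others entered this test mainly through their counts at bud. Their rise was thus largely fixed in advance, and the shares over all genes given below are not a like comparison. By edgeR's quasi-likelihood test, 30 of 31 tested entries rose in mutants and 28 of 31 in wild type, and 28 were shared; none fell. Over all genes tested, 23.7% rose in mutants and 22.4% in wild type, and 20.3% fell in mutants and 20.9% in wild type. The entry that did not pass in mutants was hoxb13a, and those that did not pass in wild type were hoxa1a, hoxd11a and hoxb13a. Since many of these genes were at or near 0 at shield, fitted fold changes are not given for single genes. For genes at 0 counts in every shield library of a genotype, the fold was computed against 3 counts per library. With 18 such entries in mutants and 12 in wild type set to that bound, the median log2 change was 5.02 in mutants and 5.49 in wild type. hoxb8a, a trunk gene with 0 counts in every shield library, had 13.3, 11.6, 13.1 and 17.8 CPM in mutants and 8.44, 15.1, 14.4 and 15.9 CPM in wild type at bud. It was at least 31.1-fold higher at bud than at shield in mutants and at least 33.2-fold higher in wild type. hoxd4a, also at 0 at shield, was at least 12.9-fold higher in mutants and at least 21.8-fold higher in wild type.

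Before this rise, few entries held enough counts to be tested between stages. Between the 1-cell and 256-cell stages 0 of 9 tested entries changed in either genotype, and between 256-cell and dome 0 of 7, by edgeR and by DESeq2. An unadjusted p under 0.05 was reached by 1 entry, in mutants between 256-cell and dome. Of all genes tested, 45% in mutants and 43% in wild type changed over the first interval, and 47.5% in mutants and 39.6% in wild type over the second. Between dome and shield 0 of 3 tested entries changed in mutants and 2 of 3 in wild type, where 45.3% of all genes changed in mutants and 44.3% in wild type. In mutants the count was also 0 at an unadjusted p under 0.05 and by DESeq2. hoxb1b had 39, 26, 7 and 10 counts in mutants and 42, 22 and 11 counts in wild type at shield and 1, 21 and 21 counts in mutants and 2, 4, 4 and 4 counts in wild type at dome. In wild type it rose (log2 change 3.05, SE 1.14, adjusted p 0.0291, edgeR's quasi-likelihood test). The difference between the genotypes' changes did not pass (adjusted p 0.450, edgeR's interaction test; 6.83% of all genes tested passed). hoxc10a, at 0 counts in all wild-type shield libraries, fell in wild type (adjusted p 0.0434, edgeR's quasi-likelihood test). Both calls rest on few counts. That of hoxb1b was lost without any of wild-type dome libraries 1, 2, 3 and 4 or wild-type shield libraries 1 and 3 (adjusted p 0.0503 to 0.144, edgeR). That of hoxc10a was lost without any of wild-type shield libraries 1, 3 and 4 or mutant dome libraries 1, 2 and 3 (adjusted p 0.0517 to 0.119, edgeR).

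Detection in groups 11 to 13, at the 5′ ends of the clusters, came mainly at 24 hpf. Of the 14 entries of groups 11 to 13, 8 were detected in mutants and 9 in wild type at 24 hpf. hoxd12a, a gene of the tail and fin buds, had 9.45, 13.5, 8.93 and 10.4 CPM in mutants and 9.40, 9.001, 6.27 and 7.61 CPM in wild type at 24 hpf. At bud it had 0, 0, 0 and 1 counts in mutants and 14, 0, 0 and 0 counts in wild type. hoxb13a had 18.5, 19.1, 14.2 and 20.7 CPM in mutants and 13.8, 20.6, 14.2 and 17.7 CPM in wild type at 24 hpf, with overlap, and averaged 0.445 ± 0.584 CPM in mutants and 1.44 ± 0.906 CPM in wild type at bud (SD, n = 4 each). hoxa11a/b (ENSDARG00000007009) had 10.8, 12.1, 9.45 and 7.79 CPM in mutants and 14.97, 13.6, 16.4 and 24.6 CPM in wild type at 24 hpf, every mutant library being below every wild-type library. The summed level of groups 11 to 13 was 54.6 to 77.3 CPM in mutants and 71.1 to 93.4 CPM in wild type at 24 hpf, and 3.09 to 6.15 CPM in mutants and 2.60 to 7.93 CPM in wild type at bud.

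By edgeR's quasi-likelihood test, 24 of 40 tested entries rose between bud and 24 hpf in mutants and 8 fell, and in wild type 25 rose and 8 fell. Of all genes tested, 34% rose and 24.3% fell in mutants, and 32.8% rose and 23.4% fell in wild type. Both genotypes shared 21 of the rises and all 8 falls. For groups 11 to 13, 8 of 9 tested entries rose in mutants (median log2 change 4.15) and 9 of 9 in wild type (median 3.69). Almost no entry of these groups was detected at bud, so those tested entered mainly through their counts at 24 hpf. Their rise was thus largely fixed in advance, and their medians do not compare on equal terms with those of the lower groups. This selection also enters the correlation given below. For groups 9 and 10 the median was 0.13 in mutants and 0.83 in wild type. For groups 5 to 8 it was 1.08 in mutants and 0.89 in wild type, and for groups 1 to 4 1.16 in mutants and 2.105 in wild type. Over all genes tested it was 0.17 in mutants and 0.15 in wild type. As a description over the 40 tested entries, which share their libraries, the Spearman correlation of the log2 change with the paralogue number was 0.37 in mutants and 0.40 in wild type. With one fit of all 12 groups, 20 of 42 tested entries were called in each genotype, in place of 32 in mutants and 33 in wild type. The share of all genes called in that fit is not given here.

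**Figure D2:**
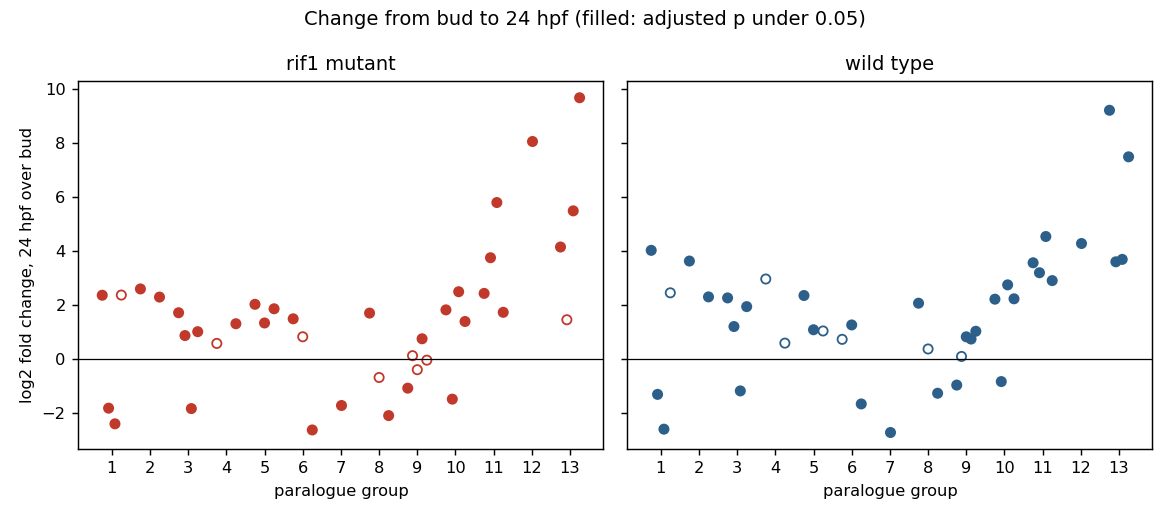
log2 fold change of 24 hpf over bud for the 40 tested Hox entries (y axis) against paralogue group (x axis), mutants in the left panel and wild type in the right; filled points passed an adjusted p of 0.05 by edgeR, open points did not. In both panels groups 1 to 10 hold points above and below 0, and groups 11 to 13 lie above 0. Entries of groups 11 to 13 entered the test mainly through their counts at 24 hpf. Fitted changes of entries with few or no counts at bud depend on the prior count.

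The 8 entries that fell in both genotypes were hoxb1a, hoxb1b, hoxc3a, hoxc6a/b (ENSDARG00000101954), hoxb7a, hoxc8a, hoxa9a and hoxb10a. hoxb1b had 49.3, 53.7, 47.3 and 51.3 CPM in mutants and 59.2, 57.5, 62.3 and 49.02 CPM in wild type at 24 hpf, below all bud libraries, and its log2 change was -2.39 (SE 0.12) in mutants and -2.58 (SE 0.12) in wild type. hoxb10a had 16.7, 6.35, 11.4 and 13.7 CPM in mutants and 17.1, 18.3, 22.9 and 19.2 CPM in wild type at 24 hpf, with log2 changes of -1.47 (SE 0.25) in mutants and -0.83 (SE 0.24) in wild type. Other genes of the same clusters rose over the same interval. hoxb8a had 40.1, 34.96, 37.8 and 46.7 CPM in mutants and 53.9, 52.8, 35.9 and 56.4 CPM in wild type, with log2 changes of 1.70 (SE 0.21) in mutants and 2.07 (SE 0.21) in wild type. hoxb3a had 70.996, 84.1, 83.2 and 88.8 CPM in mutants and 103, 94.8, 80.9 and 116 CPM in wild type, and its genotypes overlapped. hoxb2a, which acts in the hindbrain and the second pharyngeal arch, averaged 11.3 ± 2.39 CPM in mutants and 12.8 ± 2.57 CPM in wild type, with log2 changes of 2.30 (SE 0.66) in mutants and 2.30 (SE 0.66) in wild type. Without mutant bud library 1 its change in mutants was 3.70. Among genes of the caudal hindbrain and trunk, hoxd4a averaged 12.6 ± 1.91 CPM in mutants and 11.7 ± 2.07 CPM in wild type, hoxb5a/b (ENSDARG00000054030) 28.4 ± 3.20 CPM in mutants and 32.6 ± 3.03 CPM in wild type, hoxb6b 15.9 ± 6.24 CPM in mutants and 17.6 ± 5.34 CPM in wild type and hoxc10a 20.2 ± 1.43 CPM in mutants and 23.7 ± 2.80 CPM in wild type (SD, n = 4 each). hoxd4a, hoxb6a and hoxc5a passed as rises in mutants alone, and hoxb6b, hoxb9a, hoxd9a and hoxa13b in wild type alone. Of these 7, the difference between the genotypes' changes passed for hoxb9a.

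At 24 hpf the Hox entries with the highest mean in mutants were hoxb3a (81.8 ± 7.59 CPM), hoxb1b (50.4 ± 2.74 CPM), hoxb8a (39.9 ± 5.03 CPM) and hoxa3a (32.9 ± 5.19 CPM; SD, n = 4). In wild type they were hoxb3a (98.8 ± 14.8 CPM), hoxb1b (57.001 ± 5.69 CPM), hoxa3a (52.4 ± 4.77 CPM) and hoxb8a (49.7 ± 9.38 CPM; SD, n = 4). In wild type the ranges of hoxb1b, hoxa3a and hoxb8a overlapped, while hoxb3a lay above all of them in both genotypes. The 8 entries that were not detected in any group were hoxb4a, hoxa5a, hoxc6a/b (ENSDARG00000070343), hoxc11b, both hoxc12a/b entries (ENSDARG00000070352 and ENSDARG00000103133), hoxc13a/b (ENSDARG00000113877) and hoxd13a. Of these, 3 had 0 counts in all 43 libraries, namely hoxc11b, ENSDARG00000103133 and ENSDARG00000113877. In the RefSeq models hoxb4a lies inside the span of hoxb3a and hoxa5a inside that of hoxa3a.

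**Figure D3:**
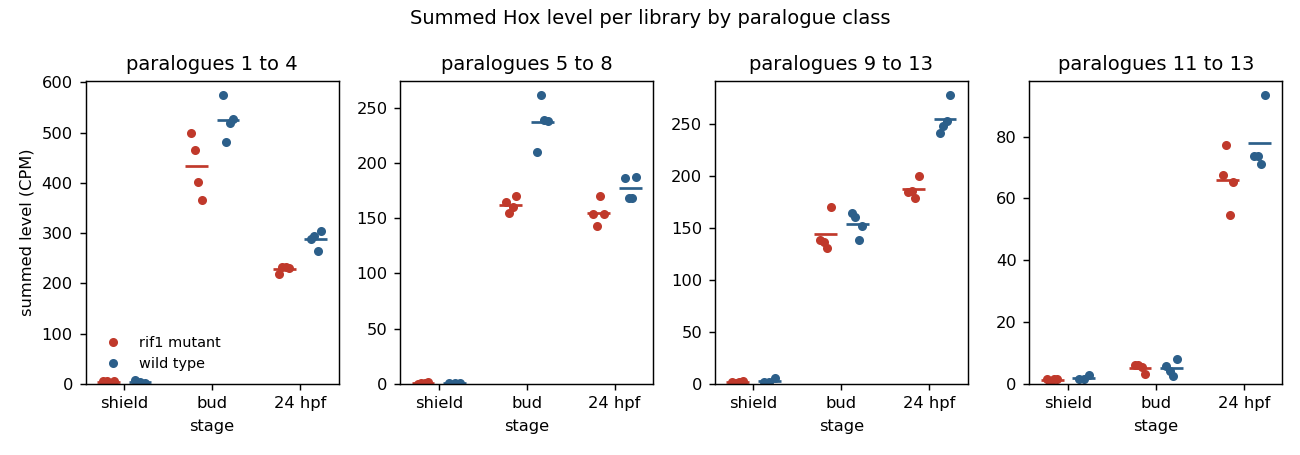
Summed CPM of the Hox entries in paralogue classes at shield, bud and 24 hpf, 1 point per library and a line at the mean, with mutants left of wild type. Groups 1 to 4 are highest at bud in both genotypes. Groups 5 to 8 are highest at bud in wild type, and in mutants their bud and 24 hpf libraries overlap. Groups 9 to 13 are highest at 24 hpf in both genotypes, and groups 11 to 13 are at 54.6 CPM or more in every library of 24 hpf only.

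Genotype comparisons before bud rest on few genes. At the 1-cell stage 0 of 4 tested entries passed edgeR's quasi-likelihood test, where 10.2% of all genes tested were called. At 256-cell it was 0 of 5 (13.5% of all genes), at dome 0 of 2 (17%) and at shield 0 of 1 (9.71%). At an unadjusted p under 0.05 the count was also 0 at each of these stages, and so it was by DESeq2. hoxb7a had 8.07, 4.55 and 3.84 CPM in mutants and 2.90, 0.514, 3.75 and 2.57 CPM in wild type at the 1-cell stage and 3.43, 4.46 and 1.94 CPM in mutants and 1.47, 1.57 and 0.801 CPM in wild type at 256-cell. Every mutant library lay above every wild-type library at both stages, as was so for 14.3% of all genes tested at the first and 17.7% at the second. The log2 fold change was 1.08 (SE 0.65, adjusted p 0.317, edgeR) at the 1-cell stage and 1.29 (SE 0.98, adjusted p 0.458, edgeR) at 256-cell. For hoxb13a at the 1-cell stage it was -1.40 (SE 1.05), and for hoxd12a at 256-cell 0.83 (SE 1.35). At dome it was -1.36 (SE 1.52) for hoxc10a and -0.13 (SE 1.11) for hoxc11a. Neither direction held under every alternative, since that of hoxc10a was 0.12 with the replicate number as a block and that of hoxc11a -0.79 to 0.38 on leaving out 1 library at a time. At shield hoxb1b had 5.61, 4.07, 0.968 and 1.58 CPM in mutants and 5.44, 3.16 and 1.45 CPM in wild type, with a log2 fold change of -0.08 (SE 0.86), and -0.54 to 0.47 on leaving out 1 library at a time.

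At bud hoxb7a was lower in rif1 mutants. It had 58.2, 64.5, 63.5 and 63.4 CPM in mutants and 108, 140.5, 131 and 137 CPM in wild type. The mutant libraries lay close together and well below all wild-type libraries. The log2 fold change was -1.01 (SE 0.13, adjusted p 3.60e-05, edgeR's quasi-likelihood test). It was the single entry called among 28 tested, where 5.51% of all genes tested were called and 3.09% were called lower. With one fit of all 12 groups the call was lost (adjusted p 0.113, edgeR). Of its neighbours in group number within the hoxba cluster, hoxb6a was at 3.08 ± 0.982 CPM in mutants and 5.58 ± 4.78 CPM in wild type and hoxb8a at 13.9 ± 2.69 CPM in mutants and 13.4 ± 3.39 CPM in wild type (SD, n = 4 each), and neither passed.

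Among the other 27 entries tested at bud, the smallest p belonged to hoxb1b, with a log2 fold change of -0.32 (SE 0.12, adjusted p 0.144, edgeR). Without mutant bud library 1, the highest of its group, hoxb1b passed, at -0.43 (adjusted p 0.0256, edgeR). hoxd9a had a log2 fold change of 0.63 (SE 0.30, adjusted p 0.271, edgeR), the one value above 0 among the 3 of 28 entries with an unadjusted p under 0.05, which 18% of all genes tested reached. Of the 28 entries, 16 had a log2 fold change below 0, with a median of -0.07, and 50.6% of all genes tested were below 0. All mutant libraries lay below all wild-type libraries for 3 of the 28 entries, hoxb7a, hoxd4a and hoxc9a, and for 7.77% of all genes tested. The summed level of groups 1 to 4 was 367 to 499 CPM in mutants and 482 to 574 CPM in wild type, with overlap. That of groups 5 to 8, which holds hoxb7a, was 155 to 170.3 CPM in mutants and 210.3 to 261 CPM in wild type, without overlap. That of groups 9 to 13 was 130.4 to 170.5 CPM in mutants and 138 to 164 CPM in wild type, with overlap.

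At 24 hpf hoxb9a and hoxa3a were lower in mutants. hoxb9a, of the posterior trunk, had 9.90, 15.8, 20.3 and 15.2 CPM in mutants and 34.9, 27.3, 34.3 and 33.98 CPM in wild type. The highest mutant library was below the lowest wild-type library, and the log2 fold change was -1.04 (SE 0.19, adjusted p 0.000267, edgeR's quasi-likelihood test). hoxa3a, which acts in the caudal hindbrain and the posterior pharyngeal arches, had 36.8, 28.6, 38.01 and 28.3 CPM in mutants and 48.9, 57.8, 47.8 and 54.9 CPM in wild type. Its groups did not overlap either, and the log2 fold change was -0.60 (SE 0.14, adjusted p 0.00412, edgeR). hoxa3a holds hoxa4a and hoxa5a within its span in the RefSeq models, so reads of these genes may be counted with it. These were the 2 entries called among 40 tested, where 8.64% of all genes tested were called and 4.29% were called lower. With one fit of all 12 groups both calls were lost (adjusted p 0.290 for hoxb9a and 0.857 for hoxa3a, edgeR).

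**Figure D4:**
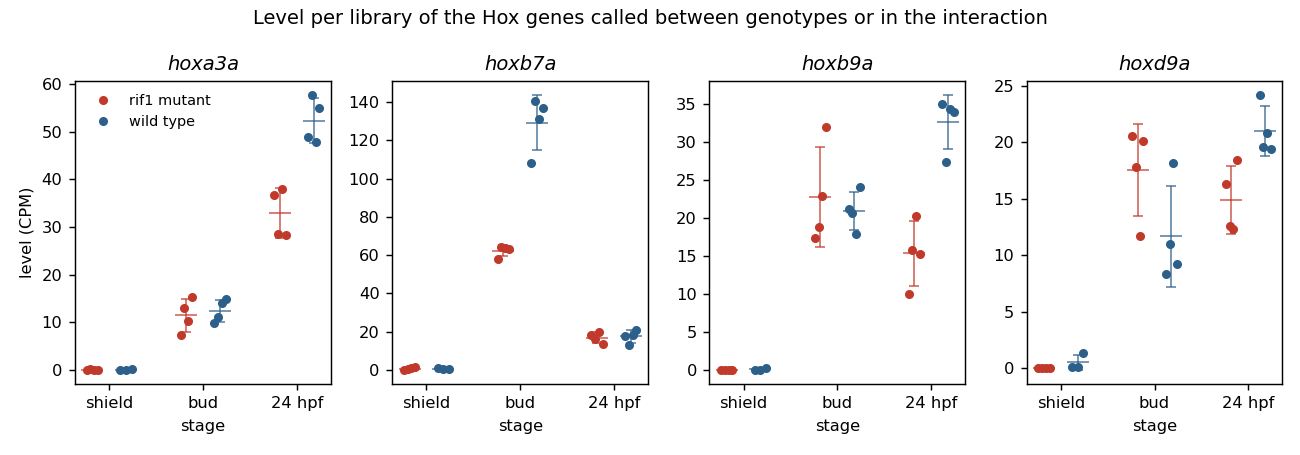
Level (CPM of the library total) of hoxa3a, hoxb7a, hoxb9a and hoxd9a in each library at shield, bud and 24 hpf, mutants left of wild type, 1 point per library, with the mean and SD as a mark and bar. Mutants lie below wild type without overlap for hoxb7a at bud and for hoxa3a, hoxb9a and hoxd9a at 24 hpf, and the genotypes overlap for hoxb7a at 24 hpf and for hoxa3a, hoxb9a and hoxd9a at bud.

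Most of the entries that did not pass at 24 hpf also had values below 0. Of the 40 tested entries, 34 had a log2 fold change below 0, with a median of -0.28, while 50.7% of all genes tested were below 0, with a median of -0.01. Over the 15 settings of the test the number below 0 was 31 to 37 and the median -0.35 to -0.19. The 37 came from 44 tested entries with no filter on low counts, and one fit of all 12 groups gave 36 of 42. An unadjusted p under 0.05 was reached by 12 of the 40 entries, each with a log2 fold change below 0, and by 20.4% of all genes tested (10.2% with a log2 fold change below 0). By class, 11 of 12 entries of groups 1 to 4 were below 0 (median -0.24), 7 of 10 of groups 5 to 8 (median -0.11) and 16 of 18 of groups 9 to 13 (median -0.42). All tested entries were below 0 in groups 1 (4 of 4), 2 (2 of 2), 3 (4 of 4), 6 (3 of 3) and 8 (3 of 3). The same held for groups 9 (5 of 5), 10 (4 of 4) and 11 (4 of 4). Below 0 were also 1 of 2 entries in group 4, 1 of 3 in group 5 and 3 of 4 in group 13. In groups 7 and 12 it was 0 of 1 each. Among entries assigned to a cluster, 4 of 4 in hoxaa, 4 of 4 in hoxab and 7 of 9 in hoxba were below 0. In hoxbb 3 of 3, in hoxca 7 of 8 and in hoxda 4 of 6 were below 0. The summed level of groups 9 and 10 was 109 to 135 CPM in mutants and 167 to 184 CPM in wild type, and that of groups 1 to 4 218 to 232 CPM in mutants and 264 to 305 CPM in wild type, both without overlap. That of groups 5 to 8 was 143 to 170.4 CPM in mutants and 168 to 187 CPM in wild type, with overlap.

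All mutant libraries lay below all wild-type libraries for 9 of the 40 entries at 24 hpf, and for 9.07% of all genes tested. For 0 of the 40 they lay above, and for 4.95% of all genes. Besides hoxb9a and hoxa3a the 9 were hoxa11a/b (ENSDARG00000007009), hoxb1a, hoxb8b, hoxb10a, hoxc8a, hoxc9a and hoxd9a. hoxa11a/b (ENSDARG00000007009) came nearest to the threshold, with a log2 fold change of -0.73 (SE 0.24, adjusted p 0.0518, edgeR). It passed with DESeq2's Wald test (adjusted p 0.0364), with no filter on low counts (adjusted p 0.04999, edgeR), with library totals in place of TMM scaling (adjusted p 0.0313, edgeR), and without wild-type library 2 (adjusted p 0.0437, edgeR). These were 4 of 15 alternative settings, and in the others it did not pass, with an adjusted p of up to 0.953 (edgeR). hoxc9a, a trunk gene, had 22.5, 20.8, 24.7 and 24.2 CPM in mutants and 27.6, 32.3, 30.3 and 35.03 CPM in wild type, a log2 fold change of -0.38 (SE 0.16, adjusted p 0.167, edgeR). hoxd9a had 16.3, 12.6, 12.3 and 18.4 CPM in mutants and 24.2, 19.6, 20.8 and 19.4 CPM in wild type, a log2 fold change of -0.43 (SE 0.21, adjusted p 0.223, edgeR). The 6 entries above 0 were hoxd12a (0.45, SE 0.27), hoxc5a (0.40, SE 0.45), hoxb5a/b (ENSDARG00000013057; 0.26, SE 0.16), hoxb13a (0.19, SE 0.21), hoxd4a (0.16, SE 0.24) and hoxb7a (0.01, SE 0.21), and that of hoxb7a was -0.048 with library totals in place of TMM scaling. Without mutant 24 hpf library 1, hoxb10a and hoxc6a/b (ENSDARG00000101954) passed as well (adjusted p 0.0455 and 0.0494, edgeR). Without mutant 24 hpf library 3, hoxc8a passed (log2 fold change -1.40, adjusted p 0.0424, edgeR).

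**Figure D5:**
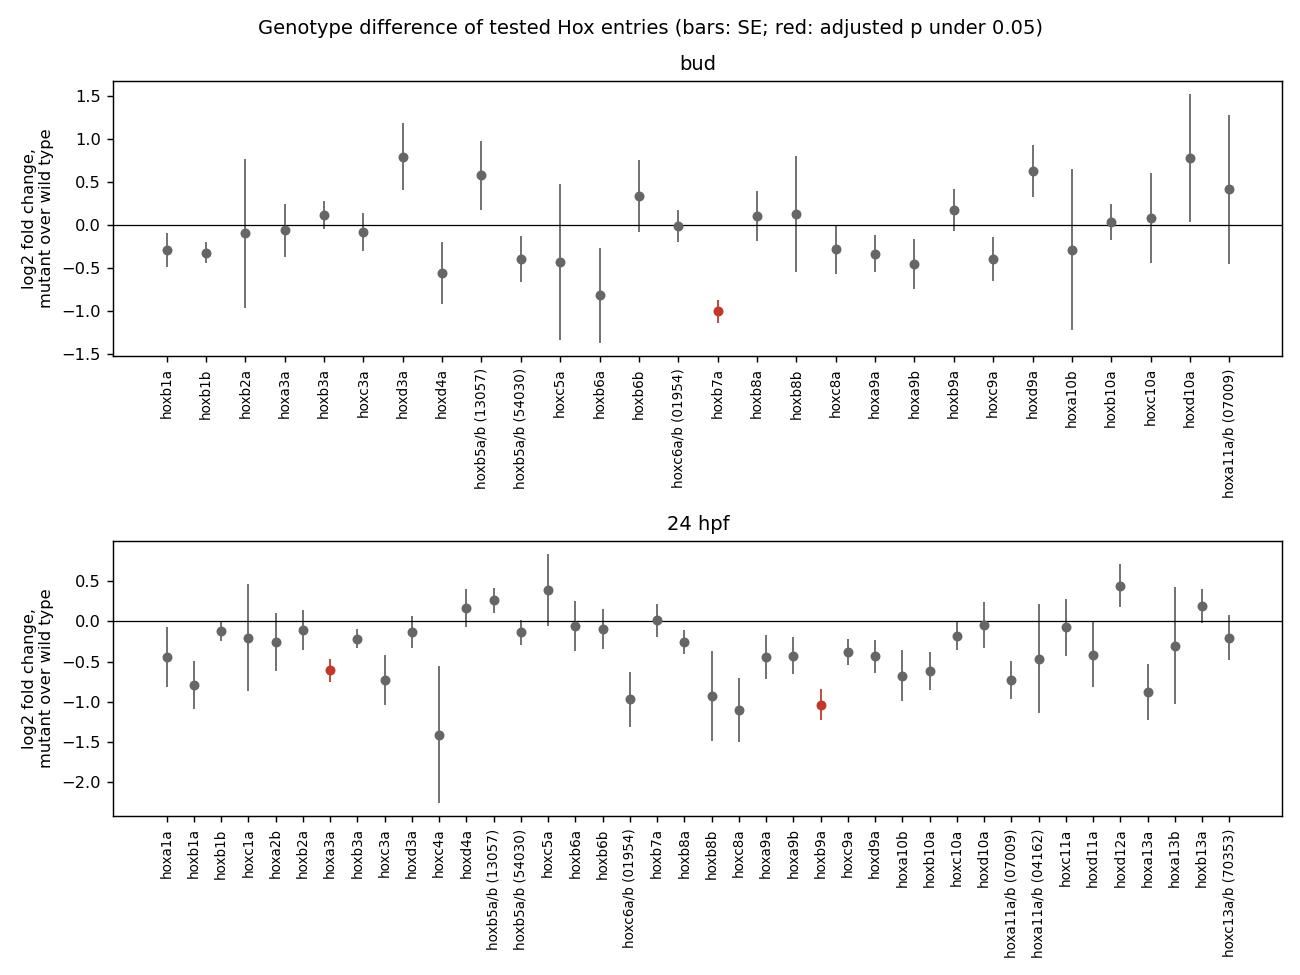
log2 fold change of mutant over wild type with its SE for the 28 tested Hox entries at bud and the 40 at 24 hpf, ordered by paralogue group; red points passed an adjusted p of 0.05 by edgeR. At bud the entries lie on both sides of 0 with hoxb7a called at -1.01, and at 24 hpf 34 of 40 lie below 0, with hoxa3a and hoxb9a called.

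The genotype difference itself changed between bud and 24 hpf for hoxb7a and hoxb9a. hoxb7a, lower in mutants at bud, had 18.2, 16.1, 19.95 and 13.5 CPM in mutants and 17.7, 13.2, 18.5 and 20.7 CPM in wild type at 24 hpf, where the genotypes overlapped. The genotype difference at 24 hpf minus that at bud was 1.01 log2 units (SE 0.22, adjusted p 0.00854, edgeR's interaction test). hoxb9a, lower in mutants at 24 hpf, had 17.3, 18.7, 22.9 and 31.9 CPM in mutants and 21.1, 20.7, 17.9 and 24.01 CPM in wild type at bud, where the genotypes overlapped. Its genotype difference at 24 hpf minus that at bud was -1.22 log2 units (SE 0.32, adjusted p 0.0366, edgeR's interaction test). These were the 2 entries called of 40, where 2.91% of all genes tested were called. One fit of all 12 groups ended both calls (adjusted p 0.424 for hoxb7a and 0.373 for hoxb9a, edgeR). That of hoxb9a was also lost without any 1 of 9 libraries, namely mutant bud library 4, mutant 24 hpf libraries 1, 2 and 4, wild-type bud libraries 1 and 3, and wild-type 24 hpf libraries 1, 3 and 4 (adjusted p 0.0529 to 0.0792, edgeR). That of hoxb7a was kept without each library in turn. For hoxa3a the change of the genotype difference did not pass, at -0.55 log2 units (SE 0.30, adjusted p 0.406, edgeR).

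Between shield and bud the genotype difference changed for hoxd9a alone among 31 tested entries (adjusted p 0.0250, edgeR's interaction test), where 2.66% of all genes tested were called. hoxd9a had 0, 0, 0 and 0 counts in mutants and 1, 1 and 10 counts in wild type at shield. At bud it had 20.5, 17.8, 11.7 and 20.1 CPM in mutants and 8.31, 10.998, 18.2 and 9.23 CPM in wild type, with overlap. The call rests on the 10 counts of wild-type shield library 4. Without that library the adjusted p was 0.293, without mutant shield library 3 it was 0.0507, and with one fit of all 12 groups it was 0.179 (edgeR).

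Genes that work with the Hox clusters were read from lists in the same fits. Of all genes tested, 5.51% were called at bud and 8.64% at 24 hpf. A single call in a list is given for that gene alone and is no result about its list. Sums of list genes, here and below, are CPM of the library total without TMM scaling. For the Hox entries at 24 hpf, the median log2 fold change was -0.35 with library totals and -0.28 with TMM scaling. Narrow gaps between the genotypes' sums may therefore depend on the scaling. Of the TALE cofactors, 1 of 11 tested was called at bud and 1 of 12 at 24 hpf. meis3, a Hox cofactor of the hindbrain, was lower in mutants at bud, with 23.3 ± 5.92 CPM in mutants and 45.1 ± 12.6 CPM in wild type (SD, n = 4 each), a log2 fold change of -0.91 (SE 0.23, adjusted p 0.0174, edgeR). meis2b was lower in mutants at 24 hpf, with 51.5 ± 7.84 CPM in mutants and 72.2 ± 8.34 CPM in wild type (SD, n = 4 each), a log2 fold change of -0.43 (SE 0.13, adjusted p 0.0283, edgeR). The 12 TALE genes summed to 919 to 1086 CPM in mutants and 967 to 1209 CPM in wild type at bud, with overlap, and to 876 to 943 CPM in mutants and 946 to 984 CPM in wild type at 24 hpf, without overlap. Of the upstream activators, 11 of 16 listed genes were matched, with cdx1b and cdx4 among them but not cdx1a, wnt8a or fgf8a. Of the matched ones, 0 of 6 tested genes were called at bud and 0 of 7 at 24 hpf. Of the retinoic acid pathway, 1 of 9 tested genes was called at bud and 0 of 9 at 24 hpf. This was aldh1a2, which encodes the main enzyme of retinoic acid synthesis in the embryo and was higher in mutants, with 18.6 ± 2.33 CPM in mutants and 9.94 ± 2.76 CPM in wild type (SD, n = 4 each), a log2 fold change of 0.95 (SE 0.28, adjusted p 0.0448, edgeR). Of that list, 11 of 22 genes were matched, so its sum covers only part of the pathway. The matched genes mix synthesis (such as aldh1a2), breakdown (such as cyp26a1) and receptors (such as raraa), so their sum gives no direction for the pathway. These 11 summed to 627 to 690.0 CPM in mutants and 704 to 737 CPM in wild type at bud, lower in every mutant library. At 24 hpf they summed to 283 to 374 CPM in mutants and 332 to 339.6 CPM in wild type, with overlap. All 11 had counts in both genotypes at these stages. Of the Polycomb and Trithorax genes, 1 of 21 was called at bud and 0 of 23 at 24 hpf. eed, a core subunit of Polycomb repressive complex 2, was lower in mutants, with 56.8 ± 3.74 CPM in mutants and 102 ± 7.21 CPM in wild type at bud (SD, n = 4 each), a log2 fold change of -0.79 (SE 0.14, adjusted p 0.000683, edgeR). The 26 matched genes of that list summed to 2082 to 2288 CPM in mutants and 2053 to 2240 CPM in wild type at bud, with overlap.

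Markers of regions and tissues were read in the same way, beside the 5.51% of all genes tested that were called at bud and 8.64% at 24 hpf. At bud 0 of 8 forebrain and midbrain, 0 of 7 hindbrain and spinal cord, 0 of 13 tail bud, 0 of 13 somite, 0 of 6 lateral plate, fin bud and kidney, and 0 of 5 late differentiation markers were called. Of the neural crest markers 1 of 9 was called at bud. This was foxd3, which is needed to specify neural crest, with 11.8 ± 4.47 CPM in mutants and 23.3 ± 3.92 CPM in wild type (SD, n = 4 each), a log2 fold change of -0.94 (SE 0.28, adjusted p 0.0465, edgeR). At 24 hpf 0 of 10 forebrain and midbrain, 0 of 6 hindbrain and spinal cord, 0 of 9 tail bud and 0 of 11 neural crest markers were called. The 10 hindbrain and spinal cord genes summed to 97.3 to 118 CPM in mutants and 98.4 to 146 CPM in wild type at 24 hpf, with 2 of them at 0 in each genotype. The 14 tail bud genes summed to 58.7 to 71.5 CPM in mutants and 57.4 to 80.1 CPM in wild type, also with 2 at 0 in each genotype. Both sums overlapped between the genotypes. The 13 somite genes summed to 108 to 122 CPM in mutants and 127 to 149.8 CPM in wild type, without overlap, with 0 at 0 in mutants and 1 in wild type, and 1 of 7 tested was called. This was myod1, a regulator of muscle fate, with a log2 fold change of -0.43 (SE 0.14, adjusted p 0.0371, edgeR). The 10 hindbrain and spinal cord genes summed to 199 to 256 CPM in mutants and 189 to 221 CPM in wild type already at shield. Such sums are therefore no measure of the amount of a tissue.

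A list of genes known for transcripts stored in the egg was lower in sum in every mutant library than in every wild-type library at each stage but 256-cell. At the 1-cell stage the sum was 13229 to 15989 CPM in mutants and 19106 to 24328 CPM in wild type. At 256-cell it was 12291 to 12432 CPM in mutants and 11592 to 12059 CPM in wild type, higher in every mutant library. Only polyadenylated RNA was sequenced, so the amount of transcript and the length of its poly(A) tail cannot be told apart in these sums. After the 1-cell stage, RNA left from the egg and RNA made by the embryo cannot be told apart here. The list includes ccnb1, a cyclin gene that dividing cells also transcribe. Its 13 genes summed to 383 to 554 CPM in mutants and 562 to 627 CPM in wild type at bud and 247 to 274 CPM in mutants and 292 to 338 CPM in wild type at 24 hpf, with 1 gene at 0 in each genotype, and 0 of 10 tested were called at each stage. Genes of differentiated tissues were called in both directions at 24 hpf, with 5 of 12 tested higher and 2 lower in mutants. Of all genes tested, 8.64% were called at that stage. The muscle genes myhz2 and actc1b were lower, with log2 fold changes of -0.95 (SE 0.11) and -0.65 (SE 0.08). The globin gene hbae1.1 and the collagen gene col1a1a were higher, with log2 fold changes of 1.11 (SE 0.08) and 0.26 (SE 0.07). The 14 late genes summed to 21366 to 22936 CPM in mutants and 22210.2 to 23040.4 CPM in wild type, with 0 at 0 in either genotype. gata5, a gene of heart and endoderm, was higher in mutants and the single one of 7 lateral plate, fin bud and kidney markers called (log2 fold change 0.61, SE 0.18, adjusted p 0.0282, edgeR). The part of these marker differences in the Hox values at bud and 24 hpf was not tested.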

How the data were processed

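The authors deposited 1 table of raw counts per gene for all libraries, which is the only unit used. Per the submitters' processing notes, STAR and HTSeq were used with GRCz11; versions, annotation release, strand setting and treatment of duplicate reads are not given in the sources used here. Reads are not known to be independent molecules. Identifiers were paired with symbols through a table of gene names, and RefSeq gene models (GRCz12tu) gave only names and which genes lie within others. All columns matched a sample by its label, and 0 columns of per-sample values were left unused. Members and gene lists were chosen with earlier results of these data known. Of 214 genes in 12 lists, 159 were matched.

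Levels are CPM (counts per 1e+06 of the library total). Genotypes were compared within each stage, and stages and interactions over the 4 groups of neighbouring stages, with edgeR 4.0.16 and limma 3.58.1 (R 4.3.3; robust glmQLFit and glmQLFTest, TMM scaling, filterByExpr), on all genes passing the filter, with a Benjamini-Hochberg adjusted p under 0.05 as the threshold. No covariate was used. The alternatives were DESeq2 1.42.0, RLE size factors, library totals, no filter, a mean of at least 1 CPM, one fit of all 12 groups, a block for the replicate number, leaving out each library in turn, and other detection limits. The edgeR step was tested on simulated data. Over 57 pairs of libraries of 1 group, the smallest chi-square per gene was 7.60, above sampling noise, so each library was counted. Genes named with values were those called between genotypes or in an interaction, the highest in each paralogue group in wild type at 24 hpf, those detected by dome in wild type, the 2 smallest p where none passed, called genes of the lists, and rif1; others named with values were chosen after their values were seen.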

Additional observations from a re-analysis of the deposited data

Results flagged for a closer look

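A single library stood apart from the other 3 of its group for 3 of the 59 combinations of named gene and group examined, where chance alone gives about 1 in 20. hoxb6b, a trunk gene, had 25.2 CPM in mutant 24 hpf library 3, against 11.97 to 13.7 CPM in the other mutant libraries. hoxb9a had 27.3 CPM in wild-type 24 hpf library 2, against 34.0 to 34.9 CPM in the other wild-type libraries. This is the wild-type library nearest to the mutants. hoxd12a had 1.85 CPM in wild-type bud library 1 and 0 CPM in the other wild-type bud libraries.

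For 3 genes the difference between the genotypes changed from one stage to the next by edgeR's interaction test. The change was 1.01 log2 units for hoxb7a between bud and 24 hpf (adjusted p 0.00854) and -1.22 for hoxb9a over the same interval (adjusted p 0.0366). The fitted value of 5.63 for hoxd9a between shield and bud (adjusted p 0.0250) depends on the prior count, since all mutant shield libraries had 0 counts.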

How the results depend on the processing

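The genotype calls of hoxb7a at bud and of hoxa3a and hoxb9a at 24 hpf kept their direction under every alternative run, and their side of the threshold under all but one fit of the 12 groups, which left 0 genotype calls at bud and 0 at 24 hpf. That fit also left 0 interaction calls between shield and bud and 0 between bud and 24 hpf, gave 2 genotype calls at the 1-cell stage and 1 at dome, and 20 calls between bud and 24 hpf in mutants and 20 in wild type. It gave 7 calls in mutants and 2 in wild type between 1-cell and 256-cell, 5 in mutants between 256-cell and dome, and 6 in mutants between dome and shield. The fit tested 42 entries, and the share of all genes it called is not given here, so these counts are no result about the Hox genes. The cause of the shifts was not tested. With library totals 1 entry was called in mutants between 256-cell and dome and 1 in wild type between dome and shield. With no filter on low counts the same counts were 1 and 1, with 1 in mutants between dome and shield and interaction counts of 2 between shield and bud and 4 between bud and 24 hpf. With a mean of at least 1 CPM 1 entry was called in wild type between dome and shield.

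Leaving out each library in turn gave 1 to 2 genotype calls at bud and 2 to 4 at 24 hpf, 1 to 3 interaction calls between bud and 24 hpf and 0 to 1 between shield and bud. Between stages it gave 0 to 1 calls in mutants from 256-cell to dome and from dome to shield, and 0 to 2 in wild type from dome to shield. With the replicate number as a block, the count in wild type between dome and shield was 0 and the genotype calls at bud and 24 hpf were kept. Samples of the same number did not deviate together at bud (correlations of -0.23 to 0.13) or at 24 hpf (-0.11 to 0.05). Earlier the correlations were -0.015 to 0.19 at 1-cell, -0.11 to 0.037 at 256-cell, -0.037 to 0.017 at dome and -0.031 to 0.034 at shield. At shield 2 of 3 mutant libraries correlated best with the wild-type library of their own number. The numbers were not taken as pairs.

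Values of named genes that did not pass the test turned their sign in some settings. On leaving out each library in turn, the log2 fold change of mutant over wild type was -2.74 to -0.91 for hoxc10a and -0.79 to 0.38 for hoxc11a at dome and -0.54 to 0.47 for hoxb1b at shield. At bud it was -1.45 to 0.36 for hoxb2a, -0.088 to 0.78 for hoxb6b, -0.066 to 0.21 for hoxb8a, -0.051 to 0.30 for hoxb9a, -0.24 to 0.29 for hoxc10a and -0.25 to 0.11 for hoxa3a. At 24 hpf it was -0.21 to 0.033 for hoxb2a, -0.40 to 0.063 for hoxb6b and -0.10 to 0.11 for hoxb7a. The change of hoxb13a between shield and bud was -0.40 to 1.09 in wild type, and that of hoxd9a between bud and 24 hpf -0.20 to 0.074 in mutants. For hoxc10a at dome the value was 0.12 with the replicate block, for hoxd9a between bud and 24 hpf in mutants 0.025 with RLE size factors and 0.025 with DESeq2, and for hoxb7a at 24 hpf -0.048 with library totals.

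With more than 10 counts in every library as the limit, 1 entry was detected in mutants and 2 in wild type at the 1-cell stage, 1 in mutants and 0 in wild type at 256-cell, 0 in wild type at dome and 0 in mutants at shield. With at least 1 CPM it was 1 in mutants at the 1-cell stage, 0 in wild type at 256-cell and 0 in mutants at shield. Before bud, depth limits what can be seen.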

Other observations

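Over the 12 means of genotype and stage, the genes outside the clusters whose log2(CPM + 1) followed the mean log2(CPM + 1) of the entries of groups 9 to 13 most closely, among 13099 candidates, were LDLRAD2 (Pearson correlation 0.993), ENSDARG00000070929 (0.990), EBF2 (0.990), camk2g2 (0.990) and HJV (0.989). The capitals are human orthologue names as the gene table gives them. The points share their libraries, and the correlations are a description.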
